A study of Homo sapiens with 6 samples.

Results

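The genes described here are 38 components and targets of the NF-kB pathway, chosen by gene symbol from the 56638 symbols listed in the files. They comprise 5 transcription factor subunits, 6 feedback inhibitors, 4 signalling adaptors, 3 other effectors, 12 chemokines and 8 cytokines. The question addressed was how these genes behaved in human colorectal cancer cells after transfection of siRNA against the long noncoding RNA GLCC1, which the sample labels call lncRNA-AF339830. RNA of 3 libraries titled control siRNA (a nonspecific siRNA) and 3 libraries titled lncRNA-AF339830 siRNA (called GLCC1 siRNA here) was sequenced. The labels give the cells as SW480, an established colorectal cancer line, at passage 16-19, whereas the study's methods name DLD-1, another such line, for this experiment. The genotype label reads lncRNA-AF339830 siRNA1 for all 3 GLCC1 siRNA libraries, so these data hold a single siRNA group against GLCC1. The library names in the labels attach each group to the other siRNA. Groups follow the titles here, and under the library names the sign of every difference below would turn.

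NF-kB is a family of dimeric transcription factors held in the cytoplasm by inhibitor proteins of the IkB family. Stimuli such as TNF, interleukin 1 or double-stranded RNA activate a kinase complex that marks the inhibitors for degradation, and the released dimers enter the nucleus. Their target genes include the inhibitors themselves, which closes a feedback loop, and chemokines, which attract leukocytes. In intestinal epithelium the pathway is known for inflammatory signalling and for protection from cell death. CXCL10, CXCL11 and CCL5 are also induced by interferons through IRF and STAT factors.

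Promoter sequences of the members were read from RefSeq (GRCh38.p14), as 250 bases before and 50 bases after each annotated start. Of the 38 genes, 29 matched an entry and the other 9 were RELB, NFKBIE, IER3, CXCL16, CX3CL1, CCL2, CCL5, IL18 and CSF1. The consensus kB motif, the element that NF-kB dimers bind, was searched on both strands with overlapping matches merged. It was present in at least 1 promoter of 19 of the 29 genes (65.5%), where 13.3% of all 27305 genes in the table have it. Many of these genes are known NF-kB targets, so the motif is a property of the choice of genes, and a match is no evidence of binding. An interferon-type motif (GAAA, any 2 bases and GAAA again, likewise on both strands) was present in CXCL10 and RELA, that is in 6.90% of the genes matched, against 4.38% of all genes. The promoters below are shown because they belong to the members with the largest rise (CXCL10 and CXCL11), to 3 neighbouring chemokines with the same kB element (CXCL1, CXCL2 and CXCL3), of which CXCL2 was called, to the classical feedback inhibitor (NFKBIA) and to a subunit that fell (REL). Each runs 5′ to 3′ on the strand of the gene, and capitals mark the kB motif and, in CXCL10, also the interferon-type motif as the first stretch.
CXCL10 (chr4:76023498-76023747, minus strand): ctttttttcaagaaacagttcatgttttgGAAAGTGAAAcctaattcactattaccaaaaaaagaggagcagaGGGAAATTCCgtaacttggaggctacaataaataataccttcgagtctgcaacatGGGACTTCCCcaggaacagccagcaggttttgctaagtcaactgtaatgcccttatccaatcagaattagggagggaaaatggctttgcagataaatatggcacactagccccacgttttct
CXCL11 (chr4:76036071-76036320, minus strand): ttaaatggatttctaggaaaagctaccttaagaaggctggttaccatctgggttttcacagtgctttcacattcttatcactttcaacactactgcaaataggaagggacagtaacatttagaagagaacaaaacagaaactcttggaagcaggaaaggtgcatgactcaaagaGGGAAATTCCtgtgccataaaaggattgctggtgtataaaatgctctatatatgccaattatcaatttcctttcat
CXCL1 (chr4:73869283-73869352, plus strand): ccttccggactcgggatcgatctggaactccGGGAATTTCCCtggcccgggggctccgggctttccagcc
CXCL2 (chr4:74099235-74099304, minus strand): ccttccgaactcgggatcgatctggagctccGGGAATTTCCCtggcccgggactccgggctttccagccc
CXCL3 (chr4:74038730-74038799, minus strand): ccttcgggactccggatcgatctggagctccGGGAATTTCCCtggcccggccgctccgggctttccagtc
NFKBIA (chr14:35404750-35404999, minus strand): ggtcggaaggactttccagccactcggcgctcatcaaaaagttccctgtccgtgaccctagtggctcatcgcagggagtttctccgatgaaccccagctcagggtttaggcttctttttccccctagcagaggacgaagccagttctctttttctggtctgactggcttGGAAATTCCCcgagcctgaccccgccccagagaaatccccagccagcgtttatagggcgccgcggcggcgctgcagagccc
REL (chr2:60881464-60881573, plus strand): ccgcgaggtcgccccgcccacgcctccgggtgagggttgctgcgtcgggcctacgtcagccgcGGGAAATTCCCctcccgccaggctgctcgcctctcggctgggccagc

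In CXCL10, the interferon-type motif began 221 bases before the start and the kB motifs 177 and 122 bases before it. CXCL11 had its kB motif 76 bases and NFKBIA 81 bases before the start. Aligned with gaps, the stretches of CXCL1 and CXCL2 were identical at 66 of 69 aligned bases (95.7%) with a gap of 1 base, those of CXCL1 and CXCL3 at 64 of 70 (91.4%) without a gap, and those of CXCL2 and CXCL3 at 63 of 69 (91.3%) with a gap of 1 base. Of the 4 members that rose with a promoter in the table, 3 had the kB motif, and so had 6 of the 7 that fell, so the motif was present in members of both directions.

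**Figure D1:**
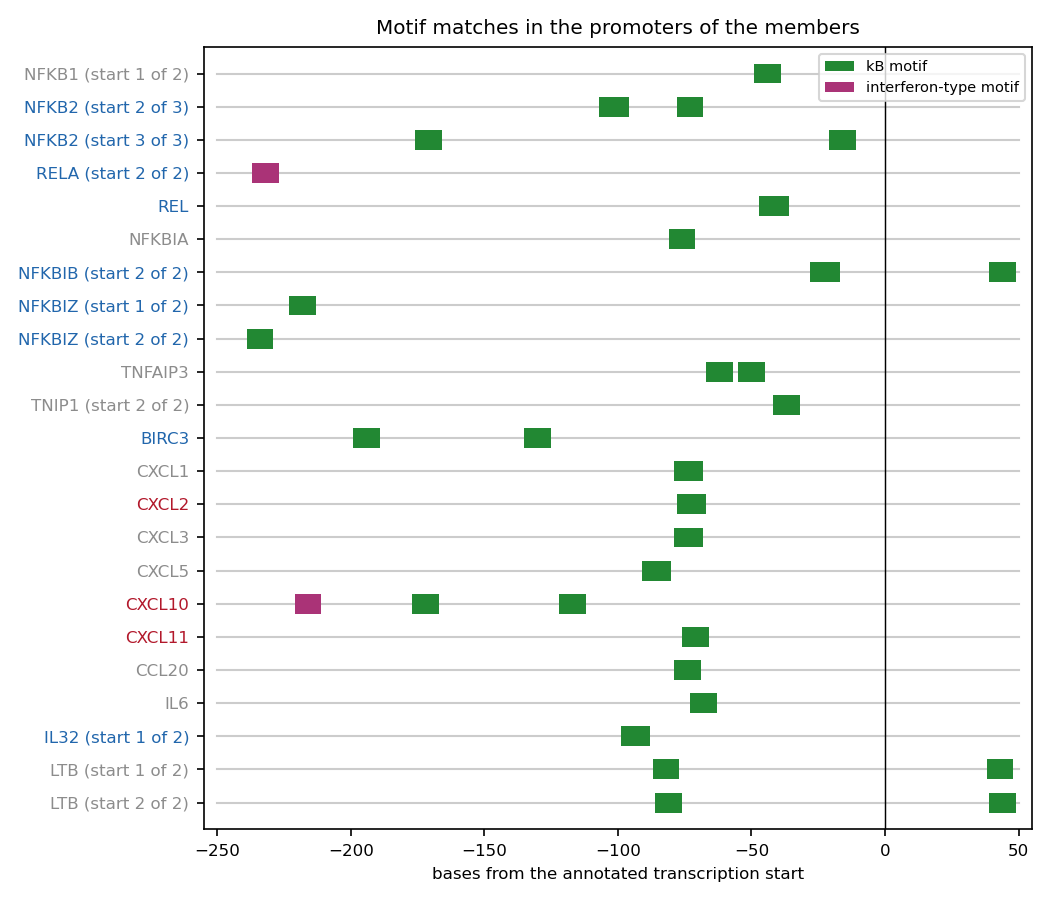
Matches of the kB motif (green) and of the interferon-type motif (purple) in the promoters of the members that hold either, by distance in bases from the annotated transcription start (0 on the horizontal axis). Gene names are red for members that rose, blue for members that fell and grey for the others. CXCL10 alone among these promoters holds matches of both motifs, the purple bar lying 221 bases before the start.

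Depth on genes ran from 11948790 to 19042516 read pairs per library and was lowest in GLCC1 siRNA replicate 2. That library also stood apart from the other libraries of its group, with a chi-square per degree of freedom of 16.3 and 17.1 against them, where the pair of replicates 1 and 3 gave 3.07 and pairs of control libraries gave 1.84 to 3.84. GLCC1 itself is not a row of the files. FARP1, the annotated gene around the locus, fell from 111 ± 2.13 CPM (SD, n = 3) in the control libraries to 64.8 ± 1.32 CPM (SD, n = 3), and whether it counts reads of GLCC1 was not tested. Of 8 epithelial markers fixed as a list, 8 averaged 1 CPM or more, whereas of 8 leukocyte markers 1 did, and PTPRC, which marks all leukocytes, had no count in any library. The summed level of the leukocyte markers was 3.57 to 5.12 CPM in control and 3.74 to 6.52 CPM in GLCC1 siRNA libraries, and that of the epithelial markers 5640 to 6160 and 2400 to 2770 CPM. Most of this difference lay in the keratins KRT8, KRT19 and KRT18, with KRT8 alone at a mean of 3584 CPM in control and 1177 CPM in GLCC1 siRNA libraries. EPCAM, CDH1 and CDX2 also lay lower in each GLCC1 siRNA library, whereas VIL1 and CDH17 lay higher in each. For 7 stromal and endothelial markers, of which 4 had no count, the sums were 16.6 to 20.8 and 11.1 to 14.6 CPM.

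Levels are given as CPM, the read pairs of a gene per 1000000 counted on genes, after scaling of library sizes by the TMM method. Differences are log2 fold changes of GLCC1 siRNA over control siRNA from edgeR's quasi-likelihood test, given with their standard error (SE), and a call needed an adjusted p under 0.05 over all 23074 genes tested. The study describes its experiments in general as done on separately collected biological replicates, but nothing in the labels or the sequencing methods says so of these libraries. The p-values thus measure the spread between these libraries, which may in part be technical. With 3 against 3 libraries, the smallest p of a two-sided exact permutation test is 0.1. In bulk RNA, fewer cells that express a gene and less RNA in each cell cannot be told apart.

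All 38 members were listed, 34 passed the filter on low counts and 30 averaged 1 CPM or more. Among the members, 4 of the 5 subunits and 3 of the 6 genes listed as feedback inhibitors fell. Of all genes that averaged 1 CPM or more, 24.8% fell. Of the 3 inhibitors, NFKBIB was called in 5 of 12 alternative settings. The CXCR3 ligands CXCL10 and CXCL11 rose, and so did CCL5, CSF1, CXCL2 and TRAF1. Differences between these groups of genes were not tested. In all, 6 of the 34 tested members rose (17.6%), where 14.9% of all tested genes did, and 10 fell (29.4%), where 16.7% of all tested genes did. Among genes that averaged 1 CPM or more, 6 of 30 members rose (20.0%) against 20.3% of 14875 genes, and 10 fell (33.3%) against 24.8%. The share that rose was therefore near the background. In 9 of the 34 tested members every GLCC1 siRNA library lay above every control library (22.3% of all tested genes did), and in 12 every one lay below (24% did). The median log2 fold change over the 34 was 0.039, against 0.028 over all tested genes. Of the 16 calls 37.5% were rises, and with library totals as the only normalization 55.6% of 18 calls were, as the median of all genes then moved up by 0.12. Without GLCC1 siRNA replicate 2, 9 members rose and 12 fell, but calls then rose across all genes too, to 21.6% higher and 22.6% lower of 22470 tested. IL6 was among those 9, on very few counts.

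**Figure D2:**
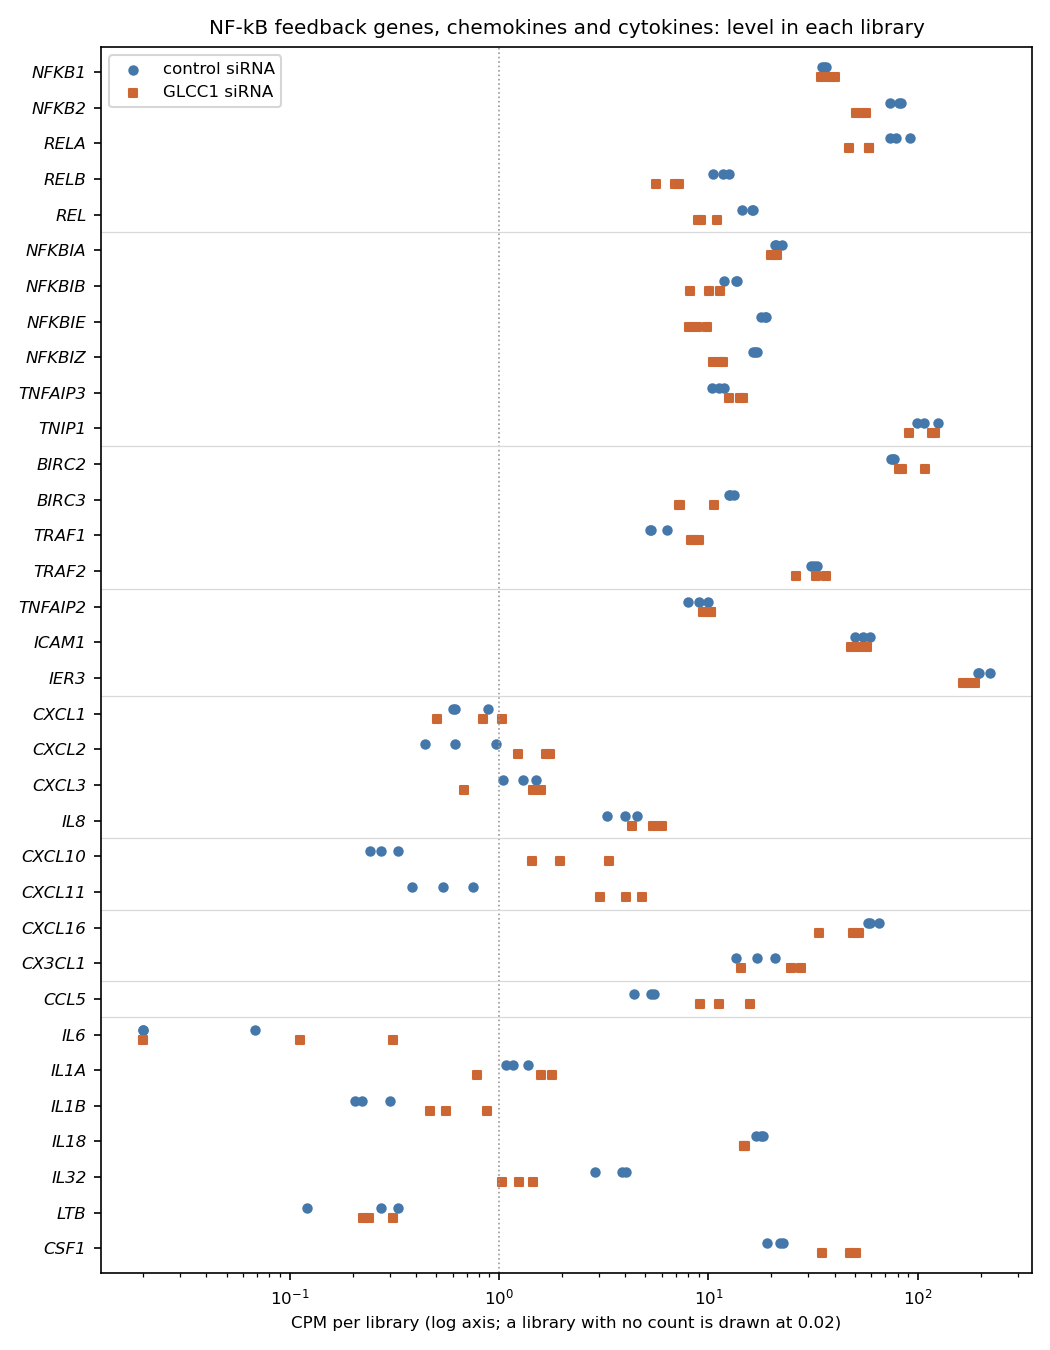
Level of the 34 tested members in each library, in CPM on a log axis, with 3 control siRNA libraries (blue circles) and 3 GLCC1 siRNA libraries (orange squares) per gene. Libraries with no count are drawn at the left edge, and the dotted line marks 1 CPM. CXCL10 and CXCL11 lie below 1 CPM in all control libraries and above it in all GLCC1 siRNA libraries, whereas the levels of NFKBIA overlap.

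**Figure D3:**
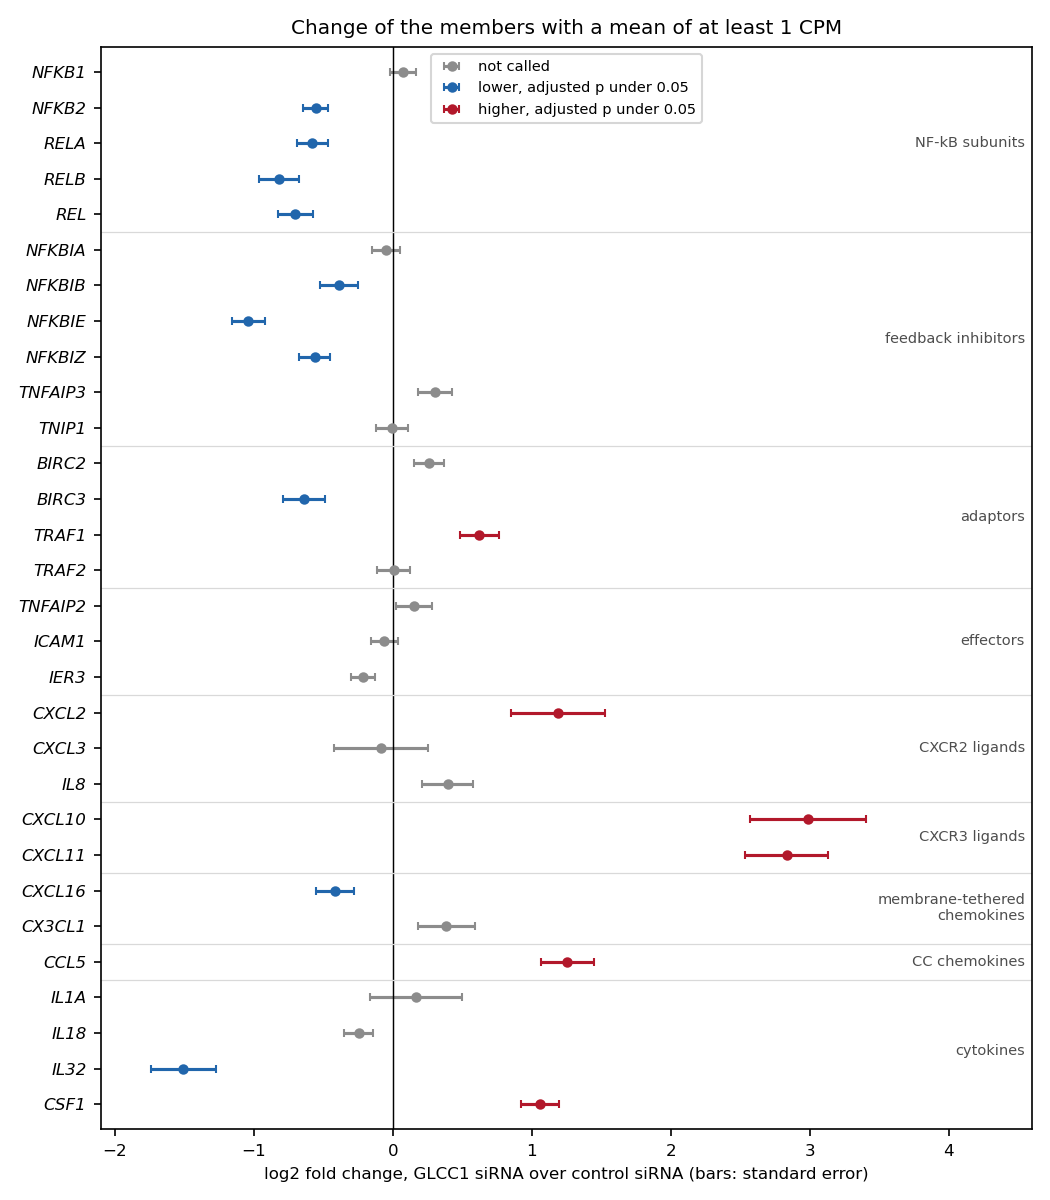
Log2 fold change of the 30 members that averaged 1 CPM or more, with the standard error (SE) of the edgeR fit as bars, ordered by role. Members that rose are red, those that fell blue and the others grey. CXCL10 (2.99) and CXCL11 (2.83) lie farthest to the right and IL32 (-1.51) farthest to the left.

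Among the subunits, RELA and NFKB1 form the most common dimer of the classical pathway, RELB and NFKB2 that of the noncanonical pathway, and REL acts mostly in lymphoid cells. RELA had 73.8, 92.1 and 78.6 CPM in the control libraries and 58.2, 46.8 and 58.4 CPM in the GLCC1 siRNA libraries. It fell by 0.58 on the log2 scale (SE 0.11, adjusted p = 0.0014), with no overlap between the groups. NFKB2, which encodes p100 and its product p52, had 73.5, 81.0 and 82.9 CPM in control and 53.9, 50.7 and 56.8 CPM in GLCC1 siRNA libraries. It fell by 0.56 on the log2 scale (SE 0.091, adjusted p = 3.7e-04). RELB, its partner, went from 10.5, 12.6 and 11.7 CPM to 5.63, 6.92 and 7.27 CPM, the largest change of a subunit, with a log2 fold change of -0.82 (SE 0.14, adjusted p = 6.1e-04). REL had 16.2, 14.5 and 16.4 CPM in control and 8.91, 10.98 and 9.17 CPM in GLCC1 siRNA libraries, giving a log2 fold change of -0.70 (SE 0.13, adjusted p = 7.4e-04). NFKB1, which encodes p105 and its product p50, did not pass the test. It had 36.4, 34.9 and 35.8 CPM in control and 40.3, 38.0 and 34.5 CPM in GLCC1 siRNA libraries, with a log2 fold change of 0.074 (SE 0.095, adjusted p = 0.59), and the groups overlapped. The calls of RELA, NFKB2, RELB and REL held in each of 12 alternative settings.

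The balance between subunits can be read without any scaling between libraries, as the share of each in the summed level per length of the 5 (RPKM, CPM per kilobase of annotated exon). NFKB1 made up 6.94%, 5.76% and 6.27% of the sum in the control libraries and 10.2%, 10.5% and 8.44% in the GLCC1 siRNA libraries, so each GLCC1 siRNA library lay above each control library. The share of RELB was lower in each, at 10.5%, 10.8% and 10.7% in control and 7.43%, 10.0% and 9.32% in GLCC1 siRNA libraries. Shares of NFKB2, RELA and REL overlapped between the groups, with NFKB2 at 37.5% to 40.8% in control and 38.2% to 39.4% in GLCC1 siRNA libraries and RELA at 39.6% to 43.7% and 37.3% to 42.2%. These shares depend on the annotated exon lengths, which are the same in every library. The lengths join all annotated exons of a gene, with 15679 bases for NFKB1 and 17129 for REL against 5457 for RELA. The shares of NFKB1 and REL are therefore small in part because of these lengths, and the size of each share is rough.

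The feedback inhibitors did not move together. NFKBIE (chr6:44225903-44233525 in hg19), which encodes IkB epsilon, had 18.9, 17.9 and 18.7 CPM in control and 8.86, 8.11 and 9.84 CPM in GLCC1 siRNA libraries, the libraries of each group lying close together and the groups far apart. Its log2 fold change was -1.04 (SE 0.12, adjusted p = 1.8e-05), that is 2.06-fold lower. NFKBIZ encodes an atypical nuclear IkB that acts as a cofactor for secondary response genes. It went from 17.0, 16.8 and 16.4 CPM to 11.8, 10.5 and 11.5 CPM, with a log2 fold change of -0.56 (SE 0.11, adjusted p = 0.0015). NFKBIB, which encodes IkB beta, had 13.6, 11.8 and 13.5 CPM in control and 10.1, 8.19 and 11.3 CPM in GLCC1 siRNA libraries, giving a log2 fold change of -0.39 (SE 0.14, adjusted p = 0.047). This call was lost in 7 of 12 alternative settings, with an adjusted p of up to 0.16, among them without each control library in turn and without GLCC1 siRNA replicate 1.

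NFKBIA, the inhibitor IkB alpha that is resynthesized first after activation, had nearly the same level in all libraries. It had 22.4, 20.9 and 20.8 CPM in control and 21.2, 20.8 and 20.0 CPM in GLCC1 siRNA libraries, and its log2 fold change was -0.050 (SE 0.10, adjusted p = 0.74). That sign turned with library totals as the only normalization. TNFAIP3 encodes A20, a ubiquitin-editing enzyme that ends signalling. It had 10.4, 11.9 and 11.3 CPM in control and 14.1, 12.6 and 14.6 CPM in GLCC1 siRNA libraries, with a log2 fold change of 0.30 (SE 0.12, adjusted p = 0.071), each GLCC1 siRNA library lying above each control library. Without GLCC1 siRNA replicate 2 its adjusted p was 0.0048. With any other library left out it was 0.11 to 0.23, and with DESeq2 it was 0.11. TNIP1, a ubiquitin-binding partner of A20, overlapped between the groups at 98.8, 124 and 107 CPM in control and 117, 91.1 and 120.2 CPM in GLCC1 siRNA libraries, and its sign depended on the setting.

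Of the adaptors, which sit at TNF receptors, BIRC3 fell and TRAF1 rose. BIRC3 encodes the ubiquitin ligase cIAP2 and is itself an NF-kB target. It had 12.5, 12.6 and 13.3 CPM in control and 7.30, 10.6 and 7.22 CPM in GLCC1 siRNA libraries, giving a log2 fold change of -0.64 (SE 0.15, adjusted p = 0.0054). For its paralog BIRC2, which encodes cIAP1, the values were 76.5, 77.2 and 74.4 CPM in control and 84.3, 108 and 81.1 CPM in GLCC1 siRNA libraries. Every GLCC1 siRNA library of BIRC2 was higher, but it did not pass the test (log2 fold change 0.26, SE 0.11, adjusted p = 0.086). Without GLCC1 siRNA replicate 2, the highest library, the log2 fold change of BIRC2 was 0.13, and without replicate 3 it was 0.34 and passed (adjusted p = 0.039). TRAF1, another NF-kB target, went from 6.31, 5.35 and 5.24 CPM to 8.55, 8.27 and 9.06 CPM, with a log2 fold change of 0.62 (SE 0.14, adjusted p = 0.0037) that held in each of 12 alternative settings. TRAF2, its constitutive partner, overlapped at 30.8 to 32.9 CPM in control and 26.3 to 36.5 CPM in GLCC1 siRNA libraries.

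The effectors ICAM1, IER3 and TNFAIP2 missed the threshold. ICAM1, an adhesion molecule for leukocytes, had 50.1, 59.3 and 54.6 CPM in control and 52.0, 48.0 and 57.2 CPM in GLCC1 siRNA libraries, which overlapped (adjusted p = 0.69). IER3, an early response gene that modulates cell survival, had the highest level per length of all members, with a mean of 151 RPKM in control and 129.7 RPKM in GLCC1 siRNA libraries. Each GLCC1 siRNA library of IER3 lay below each control library (log2 fold change -0.22, SE 0.087, adjusted p = 0.076), and without GLCC1 siRNA replicate 2 or 3 it passed the test, at an adjusted p of 0.0057 and 0.047. With any other library left out IER3 did not pass (0.12 to 0.30). TNFAIP2 overlapped at 7.95 to 10.0 CPM in control and 9.385 to 10.3 CPM in GLCC1 siRNA libraries (adjusted p = 0.41). In the annotation used here, other genes share 38.9% of the exonic bases of IER3, 33.3% of those of REL and 25.4% of those of ICAM1. The strand setting of the counting is not given in the sources used here, so reads there may be lost or belong to the other gene.

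The CXCR3 ligands CXCL10 and CXCL11 attract activated T cells and natural killer cells. They are neighbours on chromosome 4 of hg19, CXCL10 from 76942271 to 76944650 and CXCL11 from 76954835 to 76962568, both on the minus strand. CXCL10 had 4, 6 and 4 counts in the control libraries and 64, 18 and 35 counts in the GLCC1 siRNA libraries, or 0.274, 0.331 and 0.241 CPM against 3.34, 1.43 and 1.96 CPM. It was 7.93-fold higher, with a log2 fold change of 2.99 (SE 0.42, adjusted p = 1.1e-04). CXCL11 had 11, 7 and 9 counts in control and 92, 51 and 54 counts in GLCC1 siRNA libraries, or 0.754, 0.386 and 0.542 CPM against 4.80, 4.06 and 3.02 CPM. Its rise was 7.13-fold, a log2 fold change of 2.83 (SE 0.30, adjusted p = 1.0e-05). Both genes were low even after the rise, with a mean of 1.91 RPKM for CXCL10 and 2.22 RPKM for CXCL11, and both calls held in each of the 11 alternative settings in which the genes were tested. The other setting, a filter of 10 counts in every library, removed them because of the control libraries.

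CCL5 (chr17:34198495-34207797 in hg19), a chemokine for T cells and monocytes, had 4.39, 5.35 and 5.48 CPM in control and 15.7, 9.15 and 11.2 CPM in GLCC1 siRNA libraries. It was 2.39-fold higher (log2 fold change 1.26, SE 0.19, adjusted p = 2.3e-04), with the groups well apart although GLCC1 siRNA replicate 1 was far above replicate 2. The summed leukocyte markers given above overlapped between the groups. Most of that sum was CD14, with a mean of 3.29 CPM in control and 4.39 CPM in GLCC1 siRNA libraries. The part of other cells in the levels of these chemokines was not tested.

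The CXCR2 ligands, which attract neutrophils, lie in a cluster on chromosome 4 and were low. CXCL2 had 9, 8 and 16 counts in control and 32, 22 and 22 counts in GLCC1 siRNA libraries, or 0.617, 0.441 and 0.964 CPM against 1.67, 1.75 and 1.23 CPM. Its log2 fold change was 1.19 (SE 0.34, adjusted p = 0.016), and the call was lost without control siRNA replicate 1 (adjusted p = 0.057), control siRNA replicate 2 (0.09) or GLCC1 siRNA replicate 1 (0.053). IL8, which encodes interleukin 8 (now CXCL8), was the most abundant of the group per length and had 3.29, 4.57 and 3.975 CPM in control and 4.33, 5.41 and 5.99 CPM in GLCC1 siRNA libraries. It did not pass the test (log2 fold change 0.39, SE 0.18, adjusted p = 0.13), and the groups overlapped. CXCL1 with 0.602 to 0.882 and 0.503 to 1.03 CPM and CXCL3 with 1.05 to 1.51 and 0.678 to 1.59 CPM also overlapped between control and GLCC1 siRNA libraries. These 3 genes, CXCL1, CXCL2 and CXCL3, are close paralogs, and how their shared reads were assigned is uncertain.

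CXCL16 and CX3CL1 differ from other chemokines in being made as membrane-anchored proteins. CXCL16 fell, from 59.0, 64.9 and 57.6 CPM in control to 52.6, 33.6 and 49.0 CPM in GLCC1 siRNA libraries (log2 fold change -0.42, SE 0.14, adjusted p = 0.032). Its call was lost without each control library in turn, with adjusted p of 0.073, 0.14 and 0.069 without replicates 1, 2 and 3. It was also lost with library totals as the only normalization (log2 fold change -0.30, adjusted p = 0.11). CX3CL1 overlapped, at 13.5, 20.7 and 17.1 CPM in control and 27.5, 14.2 and 24.8 CPM in GLCC1 siRNA libraries (log2 fold change 0.38, SE 0.20, adjusted p = 0.18). GLCC1 siRNA replicate 2 was far below the other libraries of its group for both genes, and without it CX3CL1 had a log2 fold change of 0.60 and an adjusted p of 3.3e-04. With any other library left out, CX3CL1 was not called, at a log2 fold change of 0.21 to 0.54 (adjusted p 0.12 to 0.51). The log2 fold change of CXCL16 was -0.25 without GLCC1 siRNA replicate 2 (adjusted p = 0.0014).

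Of the cytokines, CSF1 rose and IL32 fell. CSF1 (chr1:110452864-110473614 in hg19), the growth factor of macrophages, had 19.1, 22.8 and 21.9 CPM in control and 50.7, 34.7 and 47.3 CPM in GLCC1 siRNA libraries. It was 2.09-fold higher (log2 fold change 1.06, SE 0.14, adjusted p = 5.4e-05) with no overlap. Per length, CCL5 (8.82 RPKM) and CSF1 (8.45 RPKM) were the most abundant of the members that rose, in means of the GLCC1 siRNA libraries. IL32 (chr16:3115298-3132193 in hg19), a cytokine without a close relative among the other interleukins, had 2.88, 4.02 and 3.85 CPM in control and 1.25, 1.03 and 1.45 CPM in GLCC1 siRNA libraries, the largest fall of the members tested. Its log2 fold change was -1.51 (SE 0.23, adjusted p = 2.4e-04), that is 2.84-fold lower. Both calls held in each of 12 alternative settings. IL18, which epithelial cells store as a precursor for the inflammasome, lay lower in each GLCC1 siRNA library without passing the test, at 17.8, 18.1 and 16.8 CPM in control and 14.8, 14.7 and 15.0 CPM in GLCC1 siRNA libraries (log2 fold change -0.24, SE 0.10, adjusted p = 0.094). Without GLCC1 siRNA replicate 2, IL18 passed at an adjusted p of 0.043, and with any other library left out it did not (0.15 to 0.25). The interleukin 1 genes were low. IL1A overlapped at 1.08 to 1.38 and 0.782 to 1.79 CPM, and IL1B had 3, 4 and 5 counts in control and 9, 11 and 10 counts in GLCC1 siRNA libraries (log2 fold change 1.31, SE 0.50, adjusted p = 0.060).

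The remaining members had few counts. LTB was tested with 2 to 6 counts in each library (adjusted p = 0.92). IL6 was tested with 1, 0 and 0 counts in control and 6, 0 and 2 counts in GLCC1 siRNA libraries (adjusted p = 0.19). It passed the filter only through the GLCC1 siRNA libraries, with 8 counts summed there against 1 in control. Without GLCC1 siRNA replicate 2, which had no count, IL6 was called higher on these few counts. That call came from leaving out the library with no count, and it is no support for a rise. The filter removed 4 members, CXCL5, CCL2, CCL20 and TNF. CXCL5 had 0, 3 and 1 counts in control and 1, 0 and 0 in GLCC1 siRNA libraries, and CCL20 had 1, 1 and 1 and then 1, 0 and 1. TNF, the classical inducer of the pathway, had 1 count in control siRNA replicate 2 only, and CCL2 had 1 count in GLCC1 siRNA replicate 1 only. No count in a group of 3 libraries allows a level of up to 0.0608 CPM in the control and 0.0604 CPM in the GLCC1 siRNA libraries, for counting error only.

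The other genes of the pathway were taken from lists fixed together with the members. Of 26 upstream signalling genes, all tested, 2 rose (7.69%) and 4 fell (15.4%), with a median log2 fold change of -0.16. Over all tested genes these shares were 14.9% and 16.7%. Over genes that averaged 1 CPM or more, as all 26 did, they were 20.3% and 24.8%. CHUK, the kinase IKK alpha, had 94.6, 90.2 and 92.5 CPM in control and 50.6, 62.4 and 48.5 CPM in GLCC1 siRNA libraries (log2 fold change -0.78, SE 0.10, adjusted p = 6.4e-05). MAP3K14, the kinase NIK of the noncanonical pathway, fell by 0.77 on the log2 scale (SE 0.12, adjusted p = 2.9e-04). RBCK1, a subunit of the linear ubiquitin ligase, went from 100.2, 122 and 106 CPM to 198, 152 and 210.4 CPM (log2 fold change 0.77, SE 0.12, adjusted p = 2.3e-04). The other calls were TRAF3 (0.71), which restrains NIK, TAB3 (-0.63) and COMMD1 (-0.46), named after their values were seen.

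Of 20 receptors, 12 were tested and 4 of these rose (33.3%, against 14.9% of all tested genes), with a median log2 fold change of 0.080. Among all genes that averaged 1 CPM or more, as 10 of the receptors did, 20.3% rose. TLR3, the endosomal sensor of double-stranded RNA, had 8.91, 8.43 and 8.55 CPM in control and 23.8, 18.5 and 16.6 CPM in GLCC1 siRNA libraries, giving a log2 fold change of 1.19 (SE 0.14, adjusted p = 3.3e-05). IL6R rose by 0.83 (SE 0.12, adjusted p = 1.8e-04) and IL1R1 by 0.55 (SE 0.12, adjusted p = 0.0035) on the log2 scale, and the fourth was LTBR (0.30), named after its value was seen. CXCR1 and CXCR2, the receptors of interleukin 8, had no count in any of 6 libraries, which allows up to 0.0303 CPM, and CXCR3 had 1 count in all. CXCR6, named after its values were seen, had 17 to 41 counts in each library and overlapped between the groups (adjusted p = 0.88).

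Of 30 further NF-kB target genes, 23 were tested, 6 rose (26.1%, against 14.9% of all tested genes) and 5 fell (21.7%, against 16.7%). Their median log2 fold change was -0.023. Among all genes that averaged 1 CPM or more, as 20 of these targets did, 20.3% rose and 24.8% fell. PTGS2, the inducible cyclooxygenase, had 1.65, 1.98 and 2.95 CPM in control and 19.1, 26.7 and 17.3 CPM in GLCC1 siRNA libraries, giving a log2 fold change of 3.24 (SE 0.22, adjusted p = 2.3e-07), which was above that of each member called. SOD2, the mitochondrial superoxide dismutase, rose by 0.74 on the log2 scale (SE 0.094, adjusted p = 4.9e-05). GADD45B, a stress response gene, went from 43.1, 45.5 and 45.2 CPM to 22.7, 20.8 and 27.0 CPM (log2 fold change -0.92, SE 0.11, adjusted p = 2.7e-05).

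Interferon response genes were set beside the members because CXCL10, CXCL11 and CCL5 belong to both programmes. Of a list of 26, 24 rose (92.3%, against 14.9% of all tested genes and 20.3% at 1 CPM or more). The median log2 fold change of the list was 1.73. Among GLCC1 siRNA libraries, replicate 1 had the highest CPM for 24 of these 24 genes and for 4 of the 6 members that rose, where it did so for 26.6% of the 3429 genes that rose in all. The 4 members were CXCL10, CXCL11, CCL5 and CSF1, whereas CXCL2 was highest in replicate 2 and TRAF1 in replicate 3. Over the 3429 genes replicate 2 was highest for 51.6%, so the 26.6% is low because of that library. Replicate 1 was also highest for some members that did not rise, such as NFKB1, CX3CL1 and CXCL16, and not for others, such as RELB and IL18. The tally is descriptive, and a part of interferon in the rise of the chemokines was not tested.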

How the data were processed

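The deposited files hold the authors' unnormalized read pair counts by gene symbol, 1 file for each of 6 libraries. Reads were mapped to hg19 with TopHat2 2.0.11 and counted with HTSeq in union mode, per the labels and the study's methods. The tallies of reads given to no gene, with a share of 9.82% to 12.7% for reads on no annotated feature, were removed. As in the study, a gene was kept where its counts in either condition added up to 5 or more. Counts were compared in edgeR 4.0.16 (R 4.3.3) with TMM factors and a robust quasi-likelihood fit on all genes, without covariates, with Benjamini-Hochberg adjustment of p-values. Standard errors are the log2 fold change divided by the square root of the F statistic. The procedure was tested on simulated data. RPKM used exons of GENCODE 44 mapped to hg19, in which the symbol IL8 is CXCL8. The study's methods name another annotation, Ensembl GRCh37, so the exons counted and those in the lengths may differ. Promoter stretches were aligned in Biopython 1.88.

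The members, the gene lists and the tests were chosen with earlier results of these data known. Members with a mean of 1 CPM or more were named with their values, and from each other list the 3 genes with the largest change among those called that averaged 10 CPM or more and did not overlap between groups. By this rule KRT18 (log2 fold change -1.82), KRT8 (-1.61) and KRT19 (-1.34) fell among the epithelial markers. Of those 8 markers, 5 fell (62.5%) and 1 rose (12.5%), against 24.8% and 20.3% of all genes that averaged 1 CPM or more. COL1A1 fell (-0.86) among the stromal markers, and IFI44L (6.68), IFI44 (4.26) and RSAD2 (3.80) rose most among the interferon genes. Of the leukocyte markers, 4 were tested, with a lowest adjusted p of 0.14 (CD14, log2 fold change 0.44). Alternatives were DESeq2 1.42.0, its size factors in edgeR, library totals as the only normalization, 2 other filters, the replicate number as a block, and each library left out in turn.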

Additional observations from a re-analysis of the deposited data

How the results depend on the processing

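Of the 16 member calls, 13 held under each alternative in which the gene was tested, and those of NFKBIB, CXCL16 and CXCL2 did not. With library totals as the only normalization, 10 members rose and 8 fell, with a median of 0.16, where the median of all genes moved up by 0.12 and 62.9% of all calls were rises instead of 47.0%. BIRC2, IL8, TNFAIP3 and IL1B were then called higher, and the calls of CXCL16 and NFKBIB as lower were lost. The signs of NFKBIA (0.071), ICAM1 (0.062), TNIP1 (0.12) and CXCL3 (0.036) turned. The filter of 10 counts in every library left 27 members, with 4 rises and a median of -0.022. It removed CXCL10, CXCL11 and CXCL2, TNFAIP3 was called higher (0.34, adjusted p = 0.029), and TNIP1 was 0.034. The filter of 1 count in any library added BIRC2 and CX3CL1 as rises (adjusted p = 0.047 and 0.013). TNIP1 was 0.0070 with DESeq2 and 0.0073 with its size factors. With 1 library left out, members called higher ranged from 5 to 9, members called lower from 8 to 12 and the median from -0.048 to 0.075. Signs turned there for TNIP1 (-0.076 to 0.11), TRAF2 (-0.10 to 0.12), ICAM1 (-0.12 to 0.0011), CXCL3 (-0.27 to 0.25) and IL1A (-0.097 to 0.49), none of which was a call. With the replicate block, 6 members rose and 10 fell, the same genes, and TRAF2 was -0.0090. Same-numbered libraries did not deviate together, with correlations of -0.13, -0.25 and -0.0026 across 14875 genes, which are not independent. The cause of these changes was not tested. Depth limits the members under 1 CPM, for which only large changes could be called.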
